A study of Mus musculus with 9 samples.

Results

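Autophagy carries cytoplasm, damaged organelles and glycogen to the lysosome inside a vesicle with an inner and an outer membrane, the autophagosome. A kinase complex and a lipid kinase complex start the vesicle, conjugation enzymes attach small ATG8 proteins such as LC3 to its membrane, cargo receptors tie the load to those ATG8 proteins, and SNARE proteins fuse the vesicle with the lysosome. Skeletal muscle depends on this route, and in Pompe disease, where the lysosomal enzyme acid alpha-glucosidase is missing, fibres are known for a build-up of autophagic vesicles and of the cargo receptor p62.

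The genes described here are 43 genes of the autophagy machinery and its cargo receptors, chosen by name for their roles in the pathway and looked up in a table of 13116 genes. All 43 were found, and all 43 had values high enough to be tested. By role they are 5 genes of the initiation complex, 6 of the class III phosphoinositide 3-kinase complex, 5 of membrane supply and its lipid-binding effectors, 8 conjugation enzymes and ATG4 proteases, 5 ATG8 proteins, 5 cargo receptors, 3 mitophagy receptors and 6 genes of fusion and delivery. They lie on 18 chromosomes.

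Messenger RNA of quadriceps muscle was sequenced from male mice aged 18 months, in 3 groups of 3. Wild-type mice received PBS in the tail vein (WT_PBS), GAA KO mice, which lack acid alpha-glucosidase, received PBS (KO_PBS), and further GAA KO mice received the viral vector AAV8-sp7-delta8-hGAAco, from which the liver makes a secreted human enzyme (KO_secGAA). Injections were given at 9 months of age and muscle was taken 9 months later, so every treated mouse was already 9 months old when the enzyme was supplied. Each library is taken here as 1 mouse, mice are numbered only to name them, and p-values measure the spread between these libraries. The labels name no tissue to which the knockout is limited, the series title places expression of the enzyme in the liver, and no group of wild-type mice received the vector. Below, wild-type, untreated knockout and treated mice stand for WT_PBS, KO_PBS and KO_secGAA.

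Values are the deposited normalized counts, which are reads scaled to the size of each library and by a scaling factor of that library. These factors were 0.873 to 0.914 in WT_PBS, 1.07 to 1.17 in KO_PBS and 0.963 to 1.03 in KO_secGAA. Libraries held 9299156 to 15957106 reads in the genes of the table. After both scalings 1 read was worth 0.0652 to 0.0922 normalized counts. The members had from 81 reads (Atg14) to 22847 reads (Sqstm1) in a library. Gaa, the targeted gene, was at 129 to 296 normalized counts in WT_PBS and at 14.0 to 17.8 in all 6 knockout mice. This checks the labels of genotype and not those of treatment. A gene is said to have risen or fallen where limma gave a p under 0.05 after Benjamini-Hochberg adjustment over 13089 genes. Log2 fold changes are on the log2(value + 0.5) scale.

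In KO_PBS against WT_PBS, which asks what loss of the enzyme went with in muscle, 11 of the 43 members changed: 6 rose and 5 fell. That is 25.6% of the members, beside 21.9% of all tested genes. In the separate directions 10.9% of all genes rose and 11.0% fell. Without regard to a test, 11 members had all KO_PBS mice above all WT_PBS mice, as 20.7% of all genes did, and 9 had them all below, as 19.0% of all genes did (39.7% in either direction). The risen members were Sqstm1, Nbr1 and Tax1bp1 among the cargo receptors and Map1lc3a, Gabarapl1 and Gabarap among the ATG8 proteins. The fallen members were Ulk1 and Ulk2 of the initiation complex, Atg9a of membrane supply, the receptor Optn and the SNARE gene Snap29. The members' median log2 fold change was 0.01, as was that of all tested genes. Without the authors' scaling factors 22 members rose and 1 fell, with the median of all genes moved by 0.29. Of the 13089 tested genes 4465 rose and 518 fell at that setting.

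Bulk muscle mixes cell types, and in it fewer cells of a type and less RNA per cell cannot be told apart. All 10 muscle fibre markers were present; in KO_PBS against WT_PBS Des and Myh7 rose and Ckm and Tnnt3 fell, and the sum of the 10 was 141349 to 160078 normalized counts in wild-type mice, 102634 to 121926 in untreated knockout mice and 122090.2 to 135000.2 in treated mice. Of 12 macrophage markers 3 rose in KO_PBS (Cd68, Lyz2 and Mpeg1), none was at 0 reads, and their sum was 105 to 176 in wild-type mice, 255 to 373 in untreated knockout mice and 148 to 306 in treated mice. Of 8 markers of satellite cells and regenerating fibres 4 rose, and their sum was 48.7 to 84.2, 135 to 239 and 102 to 139.7 in the same order. In the same comparison 1 of 6 fibroblast markers rose (Lum), 2 of 6 endothelial markers fell (Esam and Pecam1), the only 1 of 7 lymphocyte markers in the table fell (Cd3e), and none of 5 fat cell and 5 Schwann cell markers passed. The part of these cells in the changes of the autophagy genes was not tested.

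**Figure D1:**
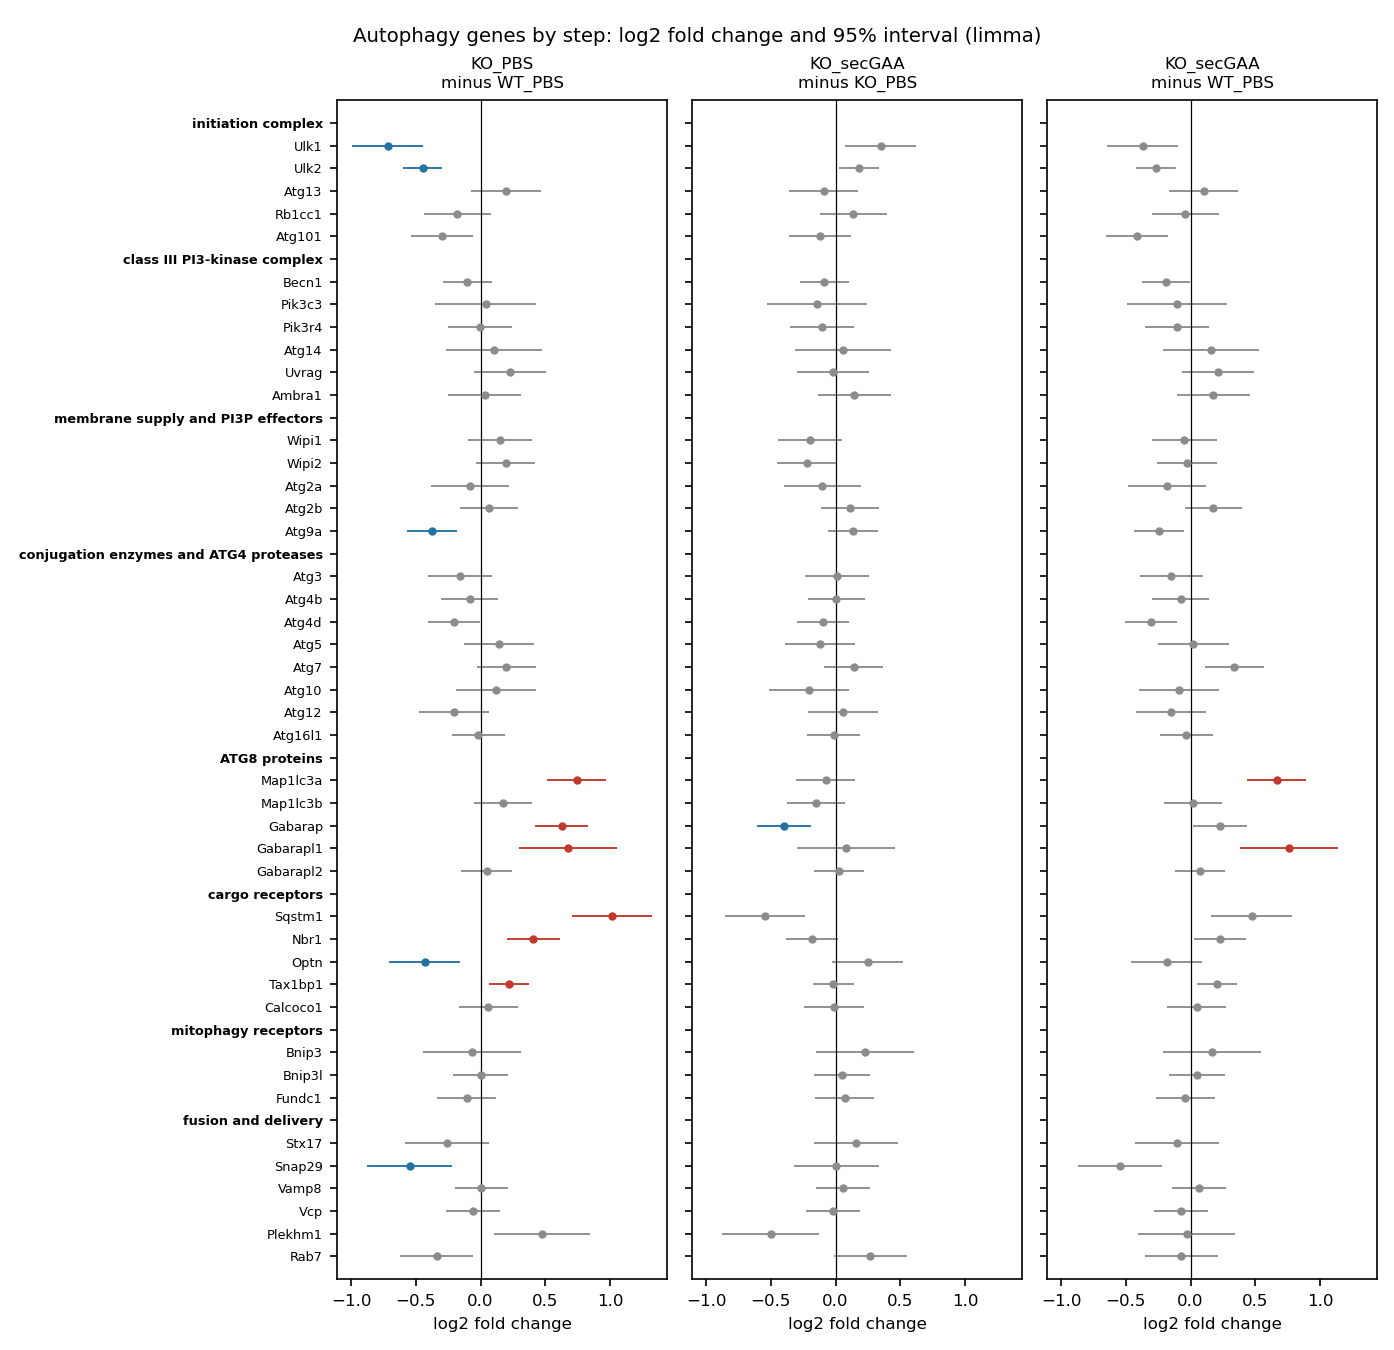
Log2 fold change (points, x axis) with the 95% interval of limma (lines) for the 43 members, ordered by step on the y axis, in the 3 comparisons on 1 common scale. Red points rose, blue points fell and grey points did not pass; in KO_PBS minus WT_PBS the red points are 6 ATG8 and receptor genes and the blue points 5 genes led by Ulk1.

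Sqstm1 (ENSMUSG00000015837, GRCm38 chr11:50199366-50210827), the gene of p62, which binds ubiquitin on its load and LC3 on the membrane, was the member with the largest rise. It stood at 795, 557 and 637 normalized counts in the WT_PBS mice, at 1491, 1224 and 1277 in the KO_PBS mice and at 842, 906 and 986 in the KO_secGAA mice. The 3 groups did not overlap, with the treated mice in the gap between the other groups. Its log2 fold change in KO_PBS against WT_PBS was 1.02 (SE 0.14, limma adjusted p = 0.001), a 2.02-fold rise. In KO_secGAA against KO_PBS it was -0.54 (SE 0.14, adjusted p = 0.0647), which missed the threshold here and passed with DESeq2 (adjusted p = 0.00701), under both other scalings and without WT_PBS mouse 1 (adjusted p = 0.0293). Against WT_PBS the treated mice differed by 0.47 (SE 0.14, adjusted p = 0.0923), again not passed by limma and passed by DESeq2 (adjusted p = 0.0334) and without WT_PBS mouse 1 (adjusted p = 0.0332).

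The 250 bases upstream of the Sqstm1 start site in RefSeq (GRCm38.p6) are shown because this was the member with the largest rise. Capitals mark GC boxes (GGGCGG or its complement CCGCCC, the letters bound by SP1), of which the stretch held 3.

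Sqstm1, chr11:50210821-50211070, minus strand: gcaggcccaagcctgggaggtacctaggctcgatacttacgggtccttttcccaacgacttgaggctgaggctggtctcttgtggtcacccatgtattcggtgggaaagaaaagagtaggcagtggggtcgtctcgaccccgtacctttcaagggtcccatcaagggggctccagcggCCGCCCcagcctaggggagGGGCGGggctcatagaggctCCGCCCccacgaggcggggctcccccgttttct

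A GC box was in 66.7% of the 36 members with a RefSeq promoter (250 bases before to 50 after the start site) and in 68.3% of the table's 9767 genes with such an entry. A match of letters is a description of the sequence and does not show that a factor binds there.

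Nbr1, a receptor built like p62 that also binds ubiquitin and ATG8 proteins, was at 73.8, 63.6 and 68.1 normalized counts in wild-type mice, 87.4, 88.9 and 96.7 in untreated knockout mice and 85.7, 73.6 and 81.4 in treated mice. Every KO_PBS mouse was above every other mouse, and 1 treated mouse lay within the wild-type range. It rose by 0.41 on the log2 scale from WT_PBS to KO_PBS (SE 0.09, adjusted p = 0.0108), and the treated mice passed against neither group (adjusted p = 0.312 against KO_PBS and 0.184 against WT_PBS).

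Tax1bp1, a receptor for ubiquitin-marked protein aggregates, was at 68.6, 65.7 and 71.99 normalized counts in wild-type mice, 81.0, 80.1 and 79.4 in untreated knockout mice and 80.3, 78.0 and 79.4 in treated mice. All 6 knockout mice, treated or not, lay above all wild-type mice. The rise in KO_PBS against WT_PBS was small (0.22, SE 0.07, limma adjusted p = 0.0474), and it missed the threshold with edgeR (adjusted p = 0.0584), with DESeq2 (adjusted p = 0.0655) and with each of the 9 libraries left out in turn (adjusted p from 0.057 to 0.145).

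Optn, the gene of optineurin, a receptor for damaged mitochondria and bacteria, went the other way from the other 3 changed receptors. Its normalized counts were 80.7, 76.0 and 71.2 in wild-type mice, 67.8, 53.2 and 49.0 in untreated knockout mice and 61.1, 70.0 and 69.6 in treated mice. Wild-type mice were highest and the groups of knockout mice overlapped. It fell by 0.43 on the log2 scale from WT_PBS to KO_PBS (SE 0.12, adjusted p = 0.0316). That call was lost when any WT_PBS mouse, KO_PBS mouse 2 or KO_PBS mouse 3 was left out (adjusted p up to 0.103). With only the 2 groups compared and without scaling factors it was lost as well (adjusted p up to 0.413), the latter with a log2 fold change of -0.12. Calcoco1, a receptor for endoplasmic reticulum, was at 66.7 to 82.3 normalized counts over all 9 mice and did not pass in any comparison.

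Map1lc3a (ENSMUSG00000027602, GRCm38 chr2:155276297-155278073), the gene of LC3A, was at 237, 226 and 241 normalized counts in wild-type mice, 434, 407 and 343 in untreated knockout mice and 340, 385 and 395 in treated mice. The treated mice overlapped the untreated knockout mice, and all 6 were above the wild-type mice. The log2 fold change was 0.74 in KO_PBS against WT_PBS (SE 0.10, adjusted p = 0.00106) and 0.67 in KO_secGAA against WT_PBS (SE 0.10, adjusted p = 0.0109). KO_secGAA and KO_PBS differed by -0.08 (95% interval -0.31 to 0.15, adjusted p = 0.735). Leaving out WT_PBS mouse 3 took the treated mice against WT_PBS to an adjusted p of 0.0521.

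Map1lc3b, the gene of LC3B, the form most used to mark autophagosomes, was at 203, 198 and 216 normalized counts in wild-type mice, 240, 233 and 221 in untreated knockout mice and 182, 208 and 238 in treated mice. The KO_PBS mice lay just above the wild-type mice, and the treated mice spanned both groups. Its log2 fold change in KO_PBS against WT_PBS was 0.17 (95% interval -0.05 to 0.39, adjusted p = 0.259), which passed after quantile normalization of the values and without scaling factors.

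Gabarap (GRCm38 chr11:69991143-69994951), which gives its name to the other ATG8 branch, was at 121, 121 and 129 normalized counts in wild-type mice, 209.6, 195 and 170.1 in untreated knockout mice and 135, 152 and 148 in treated mice. The 3 groups did not overlap, and the treated mice lay between the others. It rose by 0.63 on the log2 scale from WT_PBS to KO_PBS (SE 0.09, adjusted p = 0.00152) and fell by 0.40 in KO_secGAA against KO_PBS (SE 0.09, adjusted p = 0.0475). The fall was close to the threshold: it missed it with edgeR (adjusted p = 0.0568), and with any library but KO_PBS mouse 3 left out (adjusted p up to 0.144). The treated mice did not pass against WT_PBS (0.23, SE 0.09, adjusted p = 0.196).

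Gabarapl1, the closest relative of Gabarap, was at 52.3, 50.7 and 58.4 normalized counts in wild-type mice, 98.9, 101.3 and 63.8 in untreated knockout mice and 79.9, 101.0 and 94.4 in treated mice. KO_PBS mouse 3 lay near the wild-type mice, apart from the other 5 knockout mice. The gene rose by 0.68 on the log2 scale from WT_PBS to KO_PBS (SE 0.17, adjusted p = 0.0193) and by 0.76 from WT_PBS to KO_secGAA (SE 0.17, adjusted p = 0.0402). The first call was lost without WT_PBS mouse 2, KO_PBS mouse 1 or KO_PBS mouse 2 (adjusted p up to 0.0747). The second was lost without any 1 of the 6 mice compared (adjusted p up to 0.14).

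Gabarapl2, the gene of GATE-16 of the same branch, was at 84.6, 89.2 and 87.3 normalized counts in wild-type mice, 88.0, 91.6 and 90.0 in untreated knockout mice and 82.3, 91.5 and 101.9 in treated mice. The groups overlapped, and its log2 fold change in KO_PBS against WT_PBS was 0.05 (95% interval -0.15 to 0.24). Without scaling factors it passed in that comparison (adjusted p = 0.00692).

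**Figure D2:**
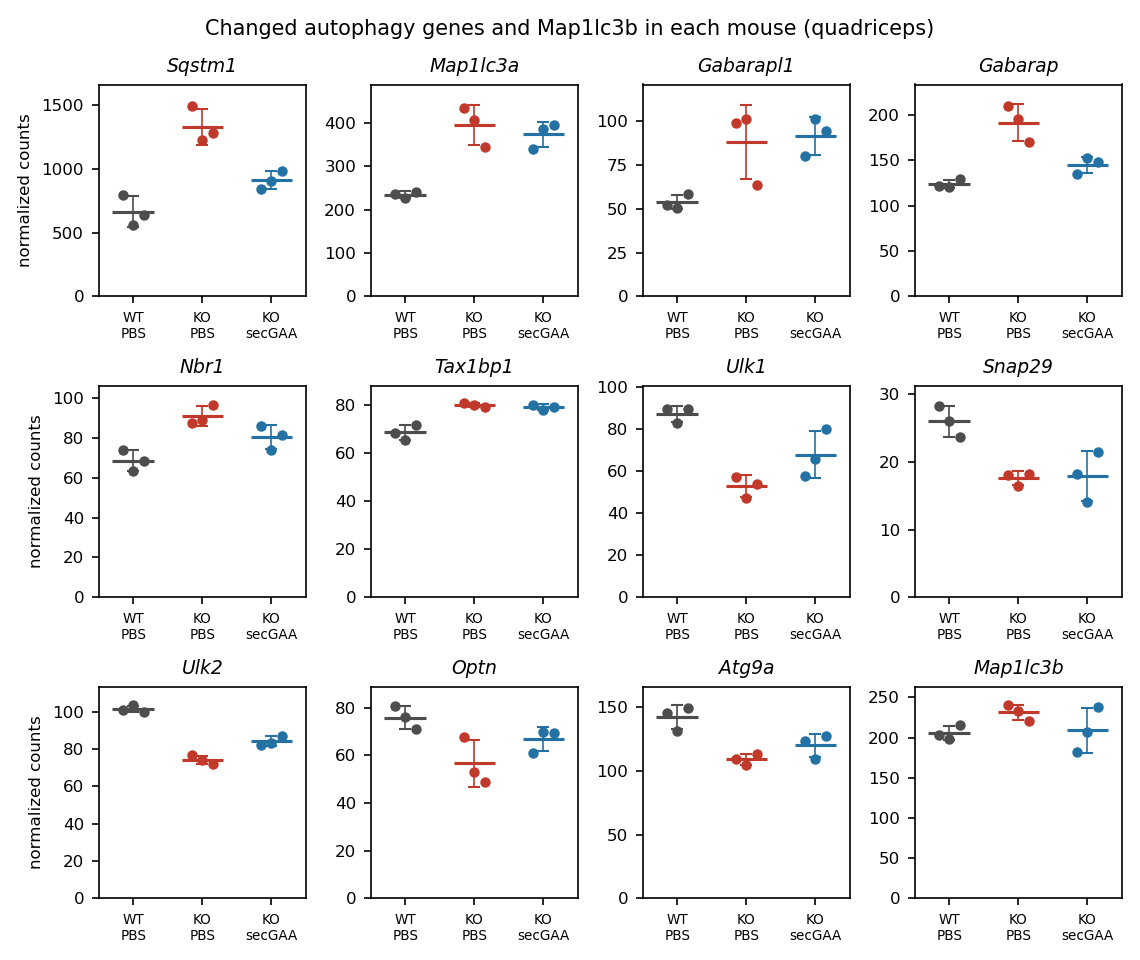
Normalized counts (y axis from 0) of the 11 changed members and of Map1lc3b in each mouse, by group on the x axis; points are mice, thick lines means and bars 1 SD. The treated mice lie between the other groups for Sqstm1 and Gabarap and beside the untreated knockout mice for Map1lc3a, Tax1bp1 and Snap29.

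Within a mouse, the ratio of related genes does not depend on the library's scaling. Map1lc3a to Map1lc3b was 1.17, 1.14 and 1.12 in wild-type mice, 1.81, 1.75 and 1.55 in untreated knockout mice and 1.86, 1.85 and 1.66 in treated mice. All 6 knockout mice had a higher ratio than all wild-type mice, and treated and untreated knockout mice overlapped. Gabarap to Gabarapl2 was 1.43, 1.36 and 1.48 in wild-type mice, 2.38, 2.13 and 1.89 in untreated knockout mice and 1.64, 1.66 and 1.45 in treated mice, so here the treated mice overlapped the wild-type mice. Gabarapl1 to Gabarapl2 was 0.568 to 0.669 in wild-type mice, 0.709 to 1.12 in untreated knockout mice and 0.926 to 1.10 in treated mice. With 3 mice against 3, a two-sided exact permutation test cannot go below p = 0.1, and each of these 3 ratios reached p = 0.1 in KO_PBS against WT_PBS (adjusted p = 0.171 over the 12 ratio tests made).

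**Figure D3:**
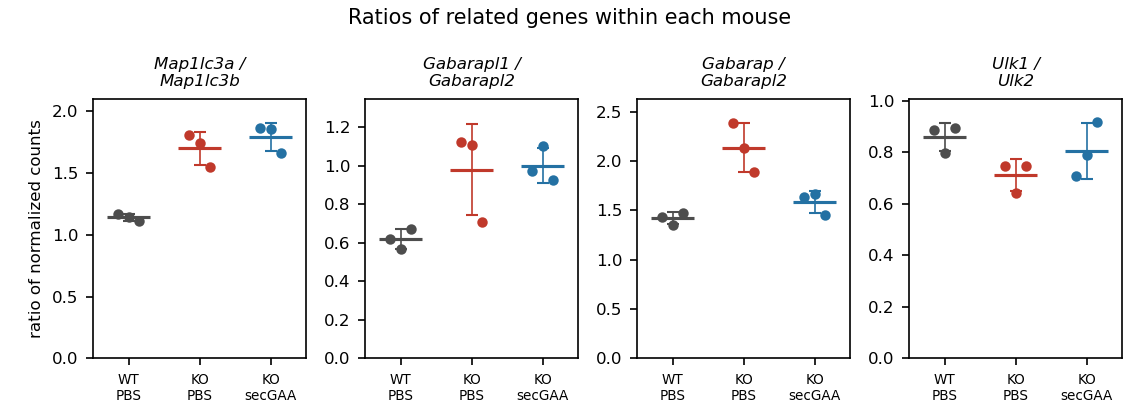
Ratio of the normalized counts of 2 related genes (y axis from 0) in each mouse, by group on the x axis; points are mice, thick lines means and bars 1 SD. For Map1lc3a to Map1lc3b the treated mice sit with the untreated knockout mice, at 1.66 to 1.86 against 1.12 to 1.17 in WT_PBS; for Gabarap to Gabarapl2 they lie between 1.45 and 1.66, below all 3 KO_PBS mice.

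Divided by the length of the principal transcript in the GENCODE annotation, the normalized counts of the 5 ATG8 genes summed to 465 ± 14.6 per kb in wild-type mice, 690.2 ± 71.2 in untreated knockout mice and 631 ± 53.6 in treated mice (SD, n = 3). Map1lc3a had the highest level per kb of the 5 in every group. Its share of that sum was 45.4% ± 0.645 in wild-type mice, 51.4% ± 0.854 in untreated knockout mice and 53.2% ± 0.315 in treated mice. The share of Gabarapl2 was 11.2% ± 0.514, 7.82% ± 0.894 and 8.68% ± 0.337 in the same order. On this per-length scale the wild-type and knockout mice did not overlap in the share of Map1lc3a (45.0% to 46.1% against 50.5% to 53.6% in the 6 knockout mice).

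Ulk1 (ENSMUSG00000029512, GRCm38 chr5:110784488-110810097), the kinase that starts autophagosome formation, had the largest fall of the members. Its normalized counts were 89.4, 82.6 and 89.2 in wild-type mice, 57.2, 47.4 and 53.9 in untreated knockout mice and 57.8, 65.7 and 80.0 in treated mice. The 3 groups did not overlap, although treated mouse 1 lay within 1 normalized count of the highest KO_PBS mouse. Ulk1 fell by 0.72 on the log2 scale from WT_PBS to KO_PBS (SE 0.12, adjusted p = 0.00299). KO_secGAA against KO_PBS gave 0.35 (SE 0.12, adjusted p = 0.156) and KO_secGAA against WT_PBS -0.37 (SE 0.12, adjusted p = 0.118, or 0.0445 without KO_secGAA mouse 3).

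The 250 bases upstream of the Ulk1 start site (RefSeq, GRCm38.p6) are shown because this was the member with the largest fall. Capitals again mark GC boxes, of which the stretch held 5.

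Ulk1, chr5:110810082-110810331, minus strand: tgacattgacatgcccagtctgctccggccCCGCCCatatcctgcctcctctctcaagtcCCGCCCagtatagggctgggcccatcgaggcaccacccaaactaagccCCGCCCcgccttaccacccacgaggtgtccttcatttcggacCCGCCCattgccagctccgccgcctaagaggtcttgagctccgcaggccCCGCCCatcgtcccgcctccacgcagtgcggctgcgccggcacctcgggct

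Ulk2, the kinase that shares this work with Ulk1, was at 100.9, 103.5 and 99.9 normalized counts in wild-type mice, 76.6, 73.9 and 72.1 in untreated knockout mice and 82.0, 83.3 and 87.1 in treated mice. Again the groups did not overlap and the treated mice lay between the others. It fell by 0.45 on the log2 scale from WT_PBS to KO_PBS (SE 0.07, adjusted p = 0.00182). The treated mice passed in neither of their comparisons by limma (adjusted p = 0.193 against KO_PBS and 0.0624 against WT_PBS). By DESeq2 they were below WT_PBS (adjusted p = 0.0199). The ratio of Ulk1 to Ulk2 was 0.798 to 0.893 in wild-type mice, 0.642 to 0.748 in untreated knockout mice and 0.705 to 0.918 in treated mice. All KO_PBS mice were below all wild-type mice in that ratio (exact permutation p = 0.1, the smallest that 3 against 3 can give).

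The other 3 members of the initiation complex did not pass. Atg13, the adaptor of the kinase, had a log2 fold change of 0.20 in KO_PBS against WT_PBS (adjusted p = 0.282), Rb1cc1, the scaffold FIP200, -0.18 (adjusted p = 0.305), and Atg101, which binds Atg13, -0.30 (adjusted p = 0.0766). Atg101 was at 34.2 to 41.7 normalized counts in WT_PBS and at 26.1 to 31.9 in the 6 knockout mice, which did not overlap. Against WT_PBS the treated mice differed by -0.42 in Atg101 (SE 0.11, adjusted p = 0.0638 by limma).

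Atg9a, the membrane protein whose vesicles seed the autophagosome, was at 146, 132 and 149.8 normalized counts in wild-type mice, 109.7, 105 and 113 in untreated knockout mice and 124, 109.8 and 127 in treated mice. Every knockout mouse, treated or not, was below every wild-type mouse. It fell by 0.38 on the log2 scale from WT_PBS to KO_PBS (SE 0.09, adjusted p = 0.0124). That call was lost without WT_PBS mouse 3 (adjusted p = 0.0573) or KO_PBS mouse 2 (adjusted p = 0.0506). Without scaling factors it was lost as well (log2 fold change -0.06, adjusted p = 0.599). Of the other 4 genes of this step, Wipi1 and Wipi2, which read the lipid PI3P, had log2 fold changes of 0.15 and 0.19, and the lipid transfer proteins Atg2a and Atg2b -0.08 and 0.06. None of these 4 passed.

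Snap29, a SNARE that joins Stx17 on the autophagosome to Vamp8 on the lysosome, was at 28.3, 26.0 and 23.7 normalized counts in wild-type mice, 18.1, 16.4 and 18.2 in untreated knockout mice and 18.2, 14.0 and 21.4 in treated mice. All 6 knockout mice lay below all wild-type mice, and treated and untreated mice overlapped. It fell by 0.55 on the log2 scale from WT_PBS to KO_PBS (SE 0.15, adjusted p = 0.025). That call was lost without WT_PBS mouse 1 or 2 or KO_PBS mouse 2 or 3 (adjusted p up to 0.0853). Without scaling factors it was lost as well (log2 fold change -0.24, adjusted p = 0.224). KO_secGAA against WT_PBS gave -0.54 (SE 0.15, adjusted p = 0.0723), which passed by DESeq2 (adjusted p = 0.0331) and without KO_secGAA mouse 3 (adjusted p = 0.0352).

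Its partners Stx17 and Vamp8 had log2 fold changes of -0.26 and 0.01 in KO_PBS against WT_PBS and did not pass. Plekhm1, an adaptor that brings lysosomes to autophagosomes, was at 16.8 to 24.99 normalized counts in wild-type mice, 25.7 to 31.6 in untreated knockout mice and 16.5 to 22.7 in treated mice. It missed the threshold in KO_PBS against WT_PBS (0.47, SE 0.17, adjusted p = 0.0703) and in KO_secGAA against KO_PBS (-0.50, SE 0.17, adjusted p = 0.137), although the KO_PBS mice overlapped neither other group. Rab7, the GTPase of late endosomes, was lower in all KO_PBS mice (170.0 to 196) than in all WT_PBS mice (200.5 to 262). Its log2 fold change of -0.34 (adjusted p = 0.0829) did not pass by limma and passed by DESeq2. Vcp, an ATPase that pulls proteins out of complexes and membranes, stayed within 514 to 619 normalized counts in all 9 mice.

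None of the 6 genes of the class III phosphoinositide 3-kinase complex, which marks the forming membrane with PI3P, passed in any comparison. Becn1, the gene of Beclin 1, was at 77.6, 74.2 and 72.5 normalized counts in wild-type mice, 71.8, 63.5 and 73.9 in untreated knockout mice and 66.7, 62.0 and 68.0 in treated mice. KO_PBS overlapped the wild-type mice, and the log2 fold change of Becn1 in KO_PBS against WT_PBS was -0.10 (95% interval -0.29 to 0.08). Every treated mouse was below every wild-type mouse in Becn1, as in 13.3% of all genes. The kinase Pik3c3, its partner Pik3r4 and the subunits and regulators Atg14, Uvrag and Ambra1 had log2 fold changes from -0.00 (Pik3r4) to 0.23 (Uvrag).

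None of the 8 conjugation enzymes and ATG4 proteases passed either. Atg5, which is joined to Atg12, was at 12.4, 12.3 and 14.7 normalized counts in wild-type mice, 14.8, 13.5 and 15.2 in untreated knockout mice and 11.9, 14.99 and 13.2 in treated mice, with overlapping groups. Atg7, the activating enzyme of both conjugation chains, was at 11.8, 10.6 and 12.1 in wild-type mice, 13.4, 13.1 and 13.2 in untreated knockout mice and 13.7, 15.1 and 15.2 in treated mice. Its 3 groups did not overlap, with the treated mice highest, but the log2 fold changes were small: 0.20 in KO_PBS against WT_PBS (adjusted p = 0.197) and 0.34 in KO_secGAA against WT_PBS (adjusted p = 0.0952). Without scaling factors Atg7 passed in both (adjusted p = 0.00484 and 0.025), and Atg5 passed in KO_PBS against WT_PBS (adjusted p = 0.0184). Atg4d, a protease of ATG8 proteins, had -0.21 (adjusted p = 0.134), and Atg3, Atg4b, Atg10, Atg12 and Atg16l1 lay between -0.21 and 0.12.

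The 3 mitophagy receptors, which sit in the outer mitochondrial membrane and bind ATG8 proteins, did not pass. Bnip3 was at 216.5 to 246 normalized counts in WT_PBS and spread from 174 to 290.3 in KO_PBS. The log2 fold changes were -0.07 for Bnip3, -0.00 for Bnip3l and -0.11 for Fundc1. Over the 32 members that did not pass in KO_PBS against WT_PBS, log2 fold changes ran from -0.34 to 0.47, and all 32 of the 95% intervals lay within -0.62 to 0.84. At the authors' scaling a change of 2-fold was thus outside the interval of each. Without scaling factors the median of all tested genes moved by 0.29 in this comparison, and the intervals at that setting are not given here.

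The promoters were searched for the E-box CACGTG, the core of the CLEAR element through which TFEB and TFE3 switch on lysosomal and autophagy genes. Of the 36 members with a RefSeq promoter (GRCm38.p6, 250 bases before to 50 after the start site), 5 held CACGTG, which is its own reverse complement. Their 30-base windows are shown with the E-box in capitals, because these are the members whose promoters carry it. The start sites used for Atg7 and Atg14 lie well inside the genes as GENCODE places them. Those genes begin at chr6:114643097 (plus strand) and chr14:47570649 (minus strand).

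Atg7, chr6:114670952-114670981, plus strand: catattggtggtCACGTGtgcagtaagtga
Bnip3, chr7:138909597-138909626, minus strand: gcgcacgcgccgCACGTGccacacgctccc
Atg5, chr10:44268313-44268342, plus strand: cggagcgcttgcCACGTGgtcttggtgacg
Atg14, chr14:47568418-47568447, minus strand: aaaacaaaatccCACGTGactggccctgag
Atg3, upstream E-box, chr16:45158723-45158752, plus strand: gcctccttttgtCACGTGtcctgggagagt
Atg3, downstream E-box, chr16:45158746-45158775, plus strand: ggagagtcgagtCACGTGaggccttaggtg

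None of these 5 genes passed in any of the 3 comparisons at the authors' scaling. Of the 36 members with a promoter, 26 did not pass in KO_PBS against WT_PBS. Of all tested genes 21.9% passed there, 3.67% in KO_secGAA against KO_PBS and 3.72% in KO_secGAA against WT_PBS. The promoters of Sqstm1 and Ulk1 shown above held no CACGTG, and Map1lc3a was among the 7 members without a promoter entry. Whether TFEB or TFE3 act on these genes here was not tested. The share of members with CACGTG, 13.9%, lay beside 11.9% of the 9767 genes of the table that have a promoter entry and 7.15% of all 32851 windows. The longer form TCACGTGA, which contains the E-box, was found in 1 member, Atg3, or 2.78%, against 2.19% of those 9767 genes. GTAAACA, a site that FoxO factors bind, searched on both strands, was in 0 of the 36 members and in 3.08% of the genes of the table.

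In KO_secGAA against KO_PBS, which asks what supplying the enzyme went with, 1 of the 43 members passed: Gabarap fell. No member rose. Of all tested genes 3.67% changed, 1.37% rising and 2.31% falling. At an unadjusted p under 0.05 there were 5 members, beside 19.3% of all genes, and edgeR called 0 and DESeq2 2 (Gabarap and Sqstm1, both lower). All treated mice were above all KO_PBS mice in 4 members (11.7% of all genes) and below them in 5 (12.3% of all genes, 24.0% in either direction). The members' median log2 fold change was -0.01, beside 0.00 over all tested genes.

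In KO_secGAA against WT_PBS 2 members passed, Map1lc3a and Gabarapl1, both higher. Of all tested genes 3.72% changed, 1.83% rising and 1.89% falling. No member fell by limma or edgeR, and 14 of the 43 members had an unadjusted p under 0.05, beside 21.5% of all genes. DESeq2 called 3 members lower, Atg101, Snap29 and Ulk2, and Sqstm1 higher beside the 2 that limma called. All treated mice were above all WT_PBS mice in 7 members (13.5% of all genes) and below them in 9 (13.3% of all genes, 26.9% in either direction). These comparisons share the KO_PBS or the WT_PBS mice with the first, so they are not independent of it.

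Set side by side, the mean of the treated mice lay between the means of WT_PBS and KO_PBS for 10 of the 11 changed members, Gabarapl1 being the exception. The same held for 90.4% of the 2867 genes of the whole table that changed in KO_PBS against WT_PBS, so the members' count lay near that of all changed genes. Against KO_PBS the treated mice passed for Gabarap, against WT_PBS for Map1lc3a and Gabarapl1, and for the other 8 members against neither group. For the 5 fallen members every treated mouse was below every wild-type mouse. Among the 6 risen members the only treated value within the wild-type range was that of 1 mouse for Nbr1. All 11 were picked as differing between KO_PBS and these same WT_PBS mice, and such counts were not made over all changed genes.

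Further genes of the pathway were read from 4 lists with 51 names. Of these, 49 were tested, and Atg9b and Calcoco2 were not analysed here. In KO_PBS against WT_PBS 4 rose and 5 fell, 18.4% of the 49 beside 21.9% of all tested genes, with a median log2 fold change of 0.02. None passed by limma in KO_secGAA against KO_PBS, where 3.67% of all genes did, or against WT_PBS, where 3.72% did (7 of the 49 at an unadjusted p under 0.05 in each). Of the 9 genes that changed, all named below, edgeR called none in these comparisons, while DESeq2 called Tex264 in the former and Retreg1 in the latter.

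Among 13 further selective receptors 3 rose and none fell, where 10.9% of all genes rose and 11.0% fell. Stbd1, which binds glycogen and ATG8 proteins and is the proposed receptor for glycogen, was at 59.3, 79.1 and 78.4 normalized counts in wild-type mice, 113.6, 89.8 and 111 in untreated knockout mice and 72.02, 94.6 and 89.7 in treated mice. It rose by 0.54 on the log2 scale (SE 0.15, adjusted p = 0.0281), and the treated mice overlapped the other groups. The call was lost without WT_PBS mouse 1, KO_PBS mouse 1 or KO_PBS mouse 3 (adjusted p up to 0.0841).

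Tex264, a receptor for endoplasmic reticulum, was at 29.0, 30.2 and 30.5 normalized counts in wild-type mice, 48.4, 45.1 and 40.1 in untreated knockout mice and 34.2, 35.0 and 34.1 in treated mice. Its 3 groups did not overlap and the treated mice lay between the others. The log2 fold change was 0.56 in KO_PBS against WT_PBS (SE 0.09, adjusted p = 0.00205) and -0.36 in KO_secGAA against KO_PBS (SE 0.09, adjusted p = 0.0541), a value that passed with 4 of the 19 alternative settings.

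Retreg1, another receptor for endoplasmic reticulum, rose by 0.92 (SE 0.28, adjusted p = 0.041), at 177, 128 and 226 normalized counts in wild-type mice, 435, 367 and 218 in untreated knockout mice and 270, 325 and 425.5 in treated mice. KO_PBS mouse 3 lay within the wild-type range. The call was lost without WT_PBS mouse 1 or 2, KO_PBS mouse 1 or 2 or KO_secGAA mouse 2 (adjusted p up to 0.131).

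Of the 11 further membrane and conjugation genes, Wdr45, which reads PI3P, rose by 0.33 (adjusted p = 0.0435), Vmp1, a lipid scramblase of the endoplasmic reticulum, fell by 0.48 (adjusted p = 0.0102) and the protease Atg4a fell by 0.32 (adjusted p = 0.0482). The call of Atg4a was lost under both other scalings (log2 fold change -0.01 without scaling factors) and with any library but WT_PBS mouse 2 left out (adjusted p up to 0.141). That of Wdr45 was lost with DESeq2 and with any library but WT_PBS mouse 2 or KO_PBS mouse 3 left out (adjusted p up to 0.139), and that of Vmp1 without scaling factors (adjusted p = 0.183). Of 11 regulators of initiation and of Beclin 1, Bcl2, whose protein holds Beclin 1 inactive, fell by 1.77 (SE 0.45, adjusted p = 0.0204). Bcl2 spread from 5.18 to 17.1 normalized counts in WT_PBS and from 1.89 to 3.35 in KO_PBS, and its call was lost with limma voom and without WT_PBS mouse 2, WT_PBS mouse 3 or KO_PBS mouse 3 (adjusted p up to 0.0781). Of 14 tethering and SNARE genes, Rilp, an effector of Rab7, fell by 0.47 (adjusted p = 0.0256) and the SNARE gene Ykt6 fell by 0.28 (adjusted p = 0.0423). The call of Ykt6 was lost under both other scalings, its log2 fold change turning to 0.03 without scaling factors, and with any library but WT_PBS mouse 1 left out (adjusted p up to 0.14). That of Rilp was lost without scaling factors (adjusted p = 0.297) and without mouse 2 or 3 of WT_PBS or of KO_PBS (adjusted p up to 0.0945).

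**Figure D4:**
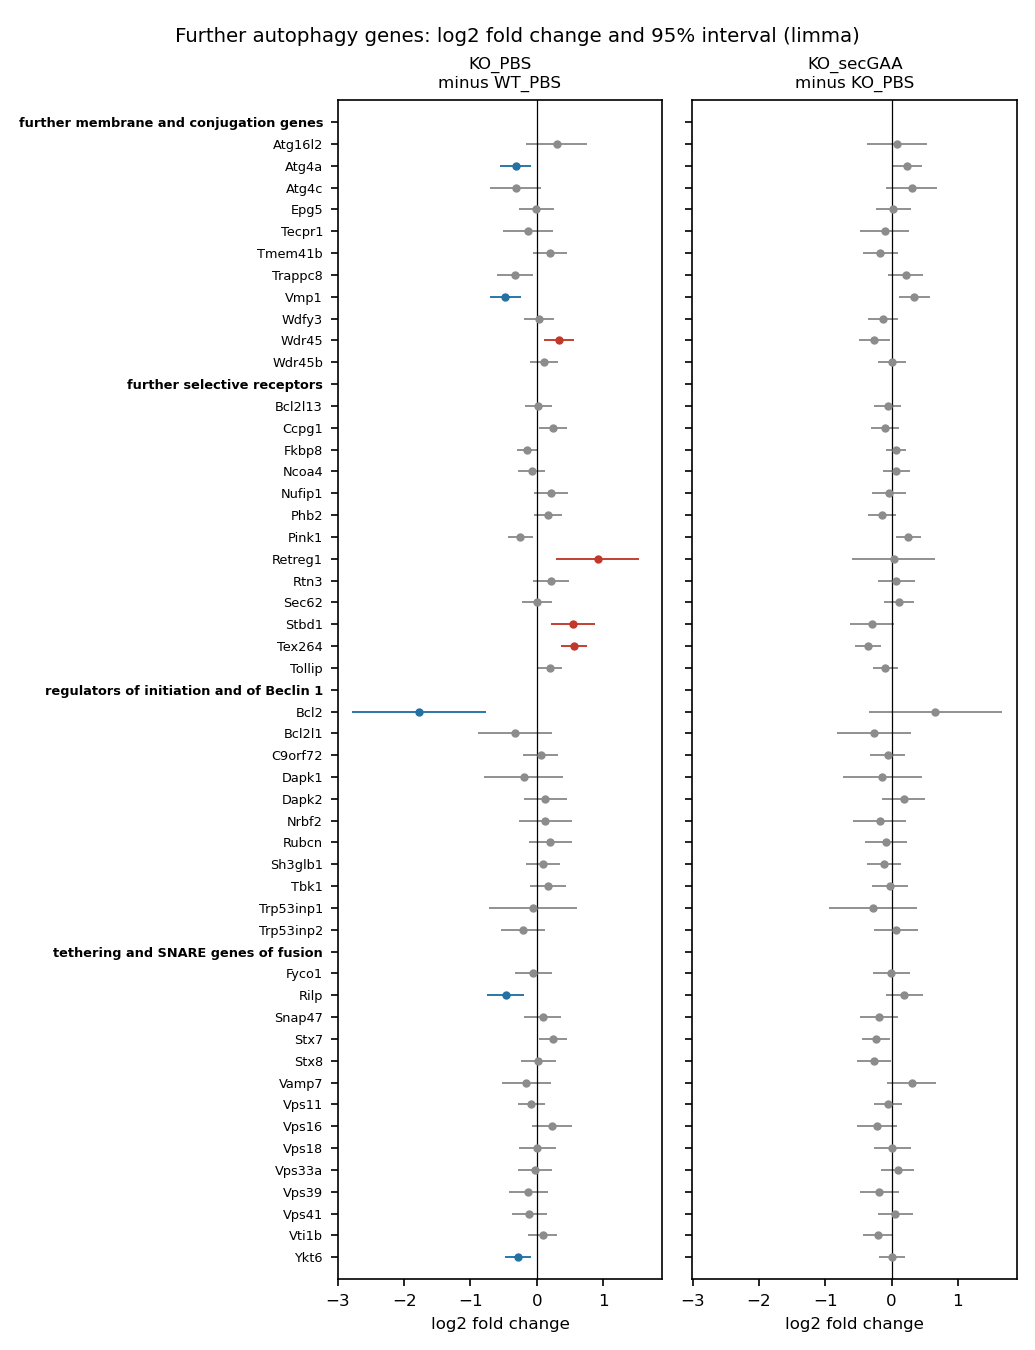
Log2 fold change (points, x axis) with the 95% interval of limma (lines) for 49 further autophagy genes in 4 lists (y axis), in KO_PBS minus WT_PBS and KO_secGAA minus KO_PBS on a common scale. Red points rose and blue points fell; the 9 coloured points are all in the first panel, with 3 of the 4 red ones among the selective receptors.

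Scaling bears on all counts in KO_PBS against WT_PBS. Without the authors' scaling factors the median log2 fold change over all tested genes went from 0.01 to 0.31 and that of the members to 0.32, and 89.6% of all genes called were higher, in place of 49.9%. In the other comparisons the shift of the median was -0.14 (KO_secGAA against KO_PBS) and 0.15 (KO_secGAA against WT_PBS). Quantile normalization gave 7 risen and 5 fallen members in KO_PBS against WT_PBS, beside 1404 risen and 1445 fallen of all tested genes. No changed member turned direction under either scaling.

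Annotated exons of another gene overlap those of 6 of the 11 changed members: Atg9a, Gabarapl1, Optn, Snap29, Sqstm1 and Tax1bp1. The use of strand in the counting is not given in the sources used here, so reads from such pairs may not be told apart. For Sqstm1 the overlapping gene Mrnip was at 0.591 to 2.44 normalized counts in the 9 libraries. For Snap29, itself at 14.0 to 28.3, the partner Pi4ka was at 17.4 to 22.5. Atg9a had Ankzf1 on the opposite strand (6.57 to 10.7) and Gm29253 on the same strand (0.0326 to 2.90). The partners of Gabarapl1, Optn and Tax1bp1 were not among the genes of the table. Map1lc3a, Gabarap, Nbr1, Ulk1 and Ulk2 had no such partner.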

How the data were processed

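RNA of quadriceps muscle was sequenced from polyadenylated RNA as single-end reads of 61 bases, per the labels. Build GRCm38 and the tools RSEM, cutadapt, CASAVA, edgeR and limma stand in the submitters' processing notes without their roles, and the use of strand is not given in the sources used here. The authors deposited a normalized signal, which the file headers call normalized counts, of 13116 genes in 9 libraries. Every value could be turned back into whole reads (100% of values, within a tolerance of 1e-06), since it equals the reads plus 0.5, scaled by the library's total and its TMM factor.

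The members, the other gene lists and the tests were chosen with earlier results of these data known. Tests covered the 13089 genes with a value of 1 or more in 3 libraries or more, which left out 27. limma 3.58.1 in R 4.3.3 was fitted to log2(value + 0.5) with group means and a trend, over all 9 libraries (6 residual degrees of freedom). Adjusted p-values are Benjamini-Hochberg values over all tested genes. Values of every mouse are given for each member that passed and for the ATG8 genes, Becn1, Atg5 and Atg7, and of the further lists those that passed are named, up to 4 a list. One gene of these lists is not reported here, and the counts leave it out. Genes were placed by identifier on GRCm38 with GENCODE M21, and promoters are those of RefSeq. Alternatives were other pseudocounts and filters, edgeR 4.0.16, DESeq2 1.42.0 and limma voom on the whole reads, other scalings, only the libraries compared, and each library left out. The fitting code was tested on simulated data.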

Additional observations from a re-analysis of the deposited data

How the results depend on the processing

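The 11 calls of autophagy members in KO_PBS against WT_PBS kept their direction under all 19 alternatives. The calls of Sqstm1, Map1lc3a, Gabarap, Nbr1 and Ulk1 also stayed past the threshold in all 19, and that of Ulk2 was lost only without scaling factors (adjusted p = 0.13). Without scaling factors, risen members numbered 22 in KO_PBS against WT_PBS, beside 4465 of the 13089 tested genes. In KO_secGAA against WT_PBS 6 members rose, beside 868 of all tested genes. Fallen members numbered 1 in KO_PBS against WT_PBS, beside 518 of all tested genes, and 3 in KO_secGAA against KO_PBS, beside 857. In KO_secGAA against KO_PBS, fallen members numbered 0 with edgeR, 0 with limma voom, 0 with only the 6 libraries compared, 2 with DESeq2 and 2 with quantile normalization, in place of 1. Of all tested genes, 337 fell in KO_secGAA against KO_PBS with quantile normalization. In KO_secGAA against WT_PBS, DESeq2 called 3 fallen members in place of 0. For the other methods and for left-out libraries, counts over all genes are not given here. The log2 fold change of Ykt6 in KO_PBS against WT_PBS turned to 0.032 without scaling factors (adjusted p = 0.804). The causes of these changes were not tested.

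With each library left out in turn, risen members in KO_PBS against WT_PBS ranged from 4 to 6 and fallen members from 2 to 5 (2 without KO_PBS mouse 2, and 3 without WT_PBS mouse 3 or KO_PBS mouse 3). Fallen members in KO_secGAA against KO_PBS ranged from 0 to 1, and the count was 0 without any library but WT_PBS mouse 1 or KO_PBS mouse 3. In KO_secGAA against WT_PBS, risen members ranged from 0 to 2 (0 without WT_PBS mouse 3, and 1 without WT_PBS mouse 2 or any KO_secGAA mouse) and fallen members from 0 to 3 (3 without KO_secGAA mouse 3). Over 25 genes in 3 comparisons, 1269 of 1425 values stayed on their side of the threshold with the same direction, 99 lost a call, 28 gained one, 28 changed sign without being called before, and 1 reversed. Most of these 75 results were not called in the main fit, and only the called ones could lose a call. No paired analysis was possible because the labels give no replicate numbers that tie mice of different groups. With 3 mice a group the median SE of a member's log2 fold change was 0.11, and no member had fewer than 81 reads in a library.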

Other observations

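The KO_PBS mice did not show the risen members equally. KO_PBS mouse 3 had the lowest value of its group for 4 of the 6 risen members, and mice 1 and 2 for 1 each. For the 5 fallen members the lowest value was that of mouse 2 for 3 genes and of mouse 3 for 2. Mouse 3 also had the fewest reads of all 9 libraries (9299156). These ranks are given as values with no test, and they were not counted over all genes that rose or fell. Whether the number of reads played a part was not tested.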
